A study of Homo sapiens with 8 samples.

Results

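The genes described here encode the proteins of the 2 ribosomes of a human cell, the cytosolic ribosome and the mitochondrial ribosome. Members were the genes whose platform symbol was RPL or RPS (cytosolic) or MRPL or MRPS (mitochondrial), then a number and at most a letter A, L or X, with pseudogenes left out. This took 121 of the 14884 named genes measured, 49 cytosolic and 72 mitochondrial. The cells were THP-1, an established human acute monocytic leukaemia line cultured as 1 line with no genetic change named in the labels. Treatment lasted 5 h, and the agent was 6 µg/mL IPA-3, 2 µg/mL FRAX-597, or the same volume of the solvent DMSO. IPA-3 is an allosteric inhibitor of p21-activated kinases and FRAX-597 an ATP-competitive one, and the series addressed PAK1 as a drug target in myeloid leukaemia. There were 4 DMSO arrays, 2 of IPA-3 and 2 of FRAX-597, each a 1-colour Affymetrix whole-transcript array. Values are log2 expression, and a change is a difference between group means on that scale. Whether the arrays of a group are separate cultures is not in the labels, and the p-values therefore cover the spread among arrays alone, which may be technical.

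Cytosolic ribosomes translate nearly all cellular mRNA. Their protein genes are transcribed at high and matched rates, and their mRNAs begin with a run of pyrimidines, the 5′ terminal oligopyrimidine (TOP) tract, through which mTOR signalling controls translation. Mitochondrial ribosomes descend from a bacterial ancestor and translate the few mRNAs of mitochondrial DNA, which encode subunits of the respiratory chain. Their proteins are encoded in the nucleus, made on cytosolic ribosomes and imported. Mitochondrial translation is a known dependency of acute myeloid leukaemia cells.

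The classes differ in how often the transcript starts with a TOP tract, and the sequences below are examples from members whose values are given further on. Each line gives 15 bases before and 15 bases from the annotated transcript start, with a TOP tract in capitals where there is one. The first 4 genes are cytosolic members picked with a tract and the next 4 mitochondrial members picked without one. Each class also holds members of the other kind. Among them is mitochondrial MRPS27, printed in a later block, whose start has a tract that is not in capitals there. Sequences are from RefSeq, build GRCh38.p14.
RPS6: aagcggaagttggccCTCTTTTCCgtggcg
RPL29: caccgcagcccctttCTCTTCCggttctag
RPS21: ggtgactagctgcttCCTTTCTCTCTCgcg
RPS27: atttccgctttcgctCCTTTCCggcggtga
MRPL17: ccggctctaccttccagtttccagttccgg
MRPS12: cggatagcgcccggaagaggctagaagctg
MRPS34: cggccggaccgctgaggacgcggacccgcc
MRPS25: ctcctgtgcgtctgcgcgggaagtggaacc
In order, these windows lie at chr9:19380222-19380251 (minus strand), chr3:51995881-51995910 (minus), chr20:62387088-62387117 (plus), chr1:153990747-153990776 (plus), chr11:6683326-6683355 (minus), chr19:38930929-38930958 (plus), chr16:1773120-1773149 (minus) and chr3:15065301-15065330 (minus). A TOP start was counted where the annotated first base was C and at least 4 more pyrimidines followed. A single annotated start was read per member, so a tract at any other start was not counted. Members without a TOP start by this count, RPL11, RPL27, RPL32 and RPS7 among them, may therefore carry a tract elsewhere. The RefSeq table held 44 of the 49 cytosolic members and 64 of the 72 mitochondrial ones. A TOP start was present in 28 cytosolic members (63.6%) and in 5 mitochondrial members (7.81%), against 4.07% of all 35116 promoters in the table. Unlike the members, this background, here and for the motifs below, was not limited to measured genes or reduced to a single start per gene.

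Other short motifs were searched on both strands in windows of 300 bases, 250 before and 50 after the start. The letters AAGATGGC, the core of the site of the factor YY1, occurred in 18 of 64 mitochondrial members (28.1%), in 4 of 44 cytosolic members (9.09%) and in 2.89% of all promoters. In 13 of those 18 mitochondrial members a match began at or after the transcript start. The letters contain ATG, so a match there may hold a start codon rather than a factor's site. Coding starts were not read, so the 2 were not told apart. The first 30 transcribed bases of 4 of these 13 members are printed because their genes are described below, with the motif in capitals.
MRPS27: ccttttggtacgctccAAGATGGCtgcctc
MRPS7: ggggtcctcgtggccagccAAGATGGCtgc
MRPL51: acagctgcctgggtaaggcccAAGATGGCt
MRPS18A: aggtttttgAAGATGGCggccctcaaggct
These lie at chr5:72320211-72320240 (minus), chr17:75261879-75261908 (plus), chr12:6493233-6493262 (minus) and chr6:43687762-43687791 (minus). The ETS-family core CCGGAAGT occurred in 11 mitochondrial members (17.2%), 6 cytosolic members (13.6%) and 4.14% of all promoters. A copy of it and a copy of AAGATGGC can overlap by at most 1 base. The 100 bases before the start of MRPS34 and MRPL27 are printed with ETS matches in capitals, on the opposite strand in MRPS34.
MRPS34: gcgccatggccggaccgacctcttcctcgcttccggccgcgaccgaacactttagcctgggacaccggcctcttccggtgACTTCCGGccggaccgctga
MRPL27: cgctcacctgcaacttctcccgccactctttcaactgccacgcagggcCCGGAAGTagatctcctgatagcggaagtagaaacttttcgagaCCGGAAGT
They lie at chr16:1773135-1773234 and chr17:50373185-50373284, both on the minus strand. The palindromic consensus site of the factor NRF1 occurred in 1 mitochondrial member (1.56%), in 1 cytosolic member (2.27%) and in 1.24% of all promoters. The mitochondrial one was MRPL17, whose 100 bases before the start, at chr11:6683341-6683440 (minus), carry it in capitals.
MRPL17: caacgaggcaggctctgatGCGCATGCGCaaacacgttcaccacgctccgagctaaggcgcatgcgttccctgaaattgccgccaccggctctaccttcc
The TATA box letters TATAAA were in 3 cytosolic members, 2 mitochondrial members and 11.5% of all promoters. Median changes with the compounds were also read for members with and without a TOP start or AAGATGGC. With FRAX-597 the median log2 change was -0.08 for the 18 mitochondrial members with AAGATGGC and -0.13 for the 46 without, and -0.04 and -0.06 for the 28 cytosolic members with a TOP start and the 16 without. With IPA-3 the corresponding medians were -0.12 and -0.14, and -0.07 and -0.07. The 11 mitochondrial members with CCGGAAGT had medians of -0.12 with IPA-3 and -0.10 with FRAX-597, and the 53 without it -0.13 and -0.12. The 6 cytosolic members with CCGGAAGT had a median of 0.06 with IPA-3, with 2 below 0, and the 38 without it -0.08, with 32 below 0. With FRAX-597 these cytosolic medians were -0.04 and -0.05. A match is a description of letters and was not tested as a site.

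The 8 arrays fell into 2 sets by their values, a split that carries no label. The median over all probes was 5.51 to 5.55 in DMSO 1, DMSO 2 and both IPA-3 arrays, and 6.00 to 6.05 in DMSO 3, DMSO 4 and both FRAX-597 arrays. Each compound was therefore compared with the DMSO pair of its own set, 2 arrays against 2. All comparisons came from 1 limma fit over the 8 arrays with 4 groups, and a gene was called at a Benjamini-Hochberg adjusted p under 0.05 over all 14884 genes. Over the arrays the mean level of the 8 measured monocytic markers ran from 8.43 to 9.04, with LYZ (lysozyme) between 9.71 and 11.27 but CD14 between 6.27 and 7.44 and MPO between 5.82 and 6.46. The mean was 6.59 to 6.91 for the 4 epithelial markers, of which KRT18 lay between 8.91 and 9.74, and 4.62 to 5.64 for the 2 T cell markers. PAX5 (B cells) lay between 5.96 and 8.36, EPB42 (erythroid cells) between 5.40 and 6.23 and DCN (fibroblasts) between 2.85 and 3.63. Probes differ in brightness, so these levels are not comparable between genes. Of the 8 measured monocytic markers, the 2 T cell markers, and the single B cell, erythroid and fibroblast markers, 0 were called for either compound, and likewise 0 of 4 epithelial markers.

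The mitochondrial members lay lower by small amounts with IPA-3, and 0 of 121 members passed the test. The median log2 change was -0.13 for the 72 mitochondrial members, -0.08 for the 49 cytosolic members and -0.02 for all genes. Of the mitochondrial members 65 lay below 0, as did 38 of 49 cytosolic members and 8270 of 14884 genes. In 49 of 72 mitochondrial members both IPA-3 arrays lay below both DMSO arrays, and in 20 of 49 cytosolic members, against 28.3% of all genes. The opposite order was found in 2 mitochondrial and 3 cytosolic members, against 19.3% of all genes. The limma fit called 0.0336% of all genes (5 genes) for IPA-3, 0.0269% as higher and 0.00672% as lower. At an unadjusted p under 0.05, 8 mitochondrial members and 1 cytosolic member were lower (4.11% of all genes) and 0 members higher (3.10%). The smallest adjusted p of a member was 0.62, for MRPS12.

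**Figure D1:**
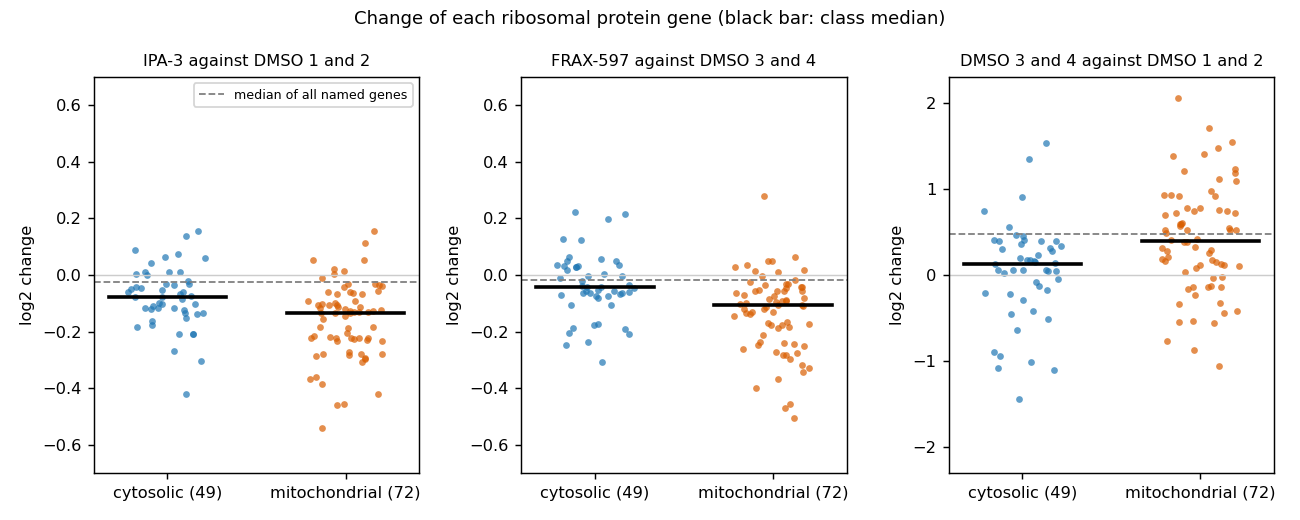
Log2 change of each of the 49 cytosolic (blue) and 72 mitochondrial (orange) ribosomal protein genes in the 3 comparisons; each point is 1 gene, the black bar the class median and the dashed line the median of all 14884 genes. With each compound the mitochondrial median lies lowest, at -0.13 and -0.11, and between the DMSO pairs the cytosolic median of 0.13 lies below that of all genes, 0.48; the third panel has a wider axis.

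Among the mitochondrial large-subunit proteins, MRPL2, a protein of the peptidyl transferase centre, had the lowest change with IPA-3. Its level was 9.38 and 9.37 in DMSO 1 and 2 and 9.03 and 8.64 in the IPA-3 arrays, a log2 change of -0.54 (SE 0.21; limma adjusted p = 0.66). Both IPA-3 arrays lay below both DMSO arrays, but they differed from each other by more than the DMSO arrays did. MRPL24, which has a counterpart in bacterial ribosomes, had 8.32 and 8.47 in DMSO and 8.27 and 7.68 with IPA-3, a log2 change of -0.42 (SE 0.24). Here the first IPA-3 array was near the controls and the second carried most of the difference. MRPL27, whose promoter is printed above, had 7.78 and 7.95 in DMSO and 7.61 and 7.34 with IPA-3, a log2 change of -0.39 (SE 0.14). MRPL51 had 7.04 and 6.96 in DMSO and 6.71 and 6.56 with IPA-3, a log2 change of -0.37 (SE 0.13). The groups did not overlap in either gene, and both had an unadjusted p under 0.05 and an adjusted p of 0.62 or more.

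In the mitochondrial small subunit, MRPS27, a pentatricopeptide repeat protein, had 7.80 and 8.06 in DMSO and 7.59 and 7.35 with IPA-3, a log2 change of -0.46 (SE 0.16; limma adjusted p = 0.63). MRPS14 had 7.75 and 7.83 in DMSO and 7.41 and 7.25 with IPA-3, also a log2 change of -0.46 (SE 0.17; limma adjusted p = 0.65). In MRPS14 each pair lay close together and the groups were well apart. MRPS12, a protein of the decoding centre, had 7.12 and 7.25 in DMSO and 6.97 and 6.69 with IPA-3, a log2 change of -0.36 (SE 0.13). MRPS34, a subunit found in mitochondrial but not bacterial ribosomes, had 9.19 and 9.30 in DMSO and 8.95 and 8.98 with IPA-3, a log2 change of -0.28 (SE 0.10). MRPS7, another small-subunit protein with a bacterial counterpart, had 9.02 and 9.15 in DMSO and 8.77 and 8.81 with IPA-3, without overlap and with a log2 change of -0.30 (SE 0.17). The 2 mitochondrial members whose IPA-3 arrays both lay above both DMSO arrays were MRPL41, with a log2 change of 0.16 (SE 0.13), and MRPS22, with 0.05 (SE 0.13). The subunits were alike in median: -0.14 over 48 large-subunit members, of which 44 lay below 0, and -0.12 over 24 small-subunit members, of which 21 lay below 0. The 42 mitochondrial members with a bacterial counterpart had a median of -0.13 and the 30 without one -0.14.

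**Figure D2:**
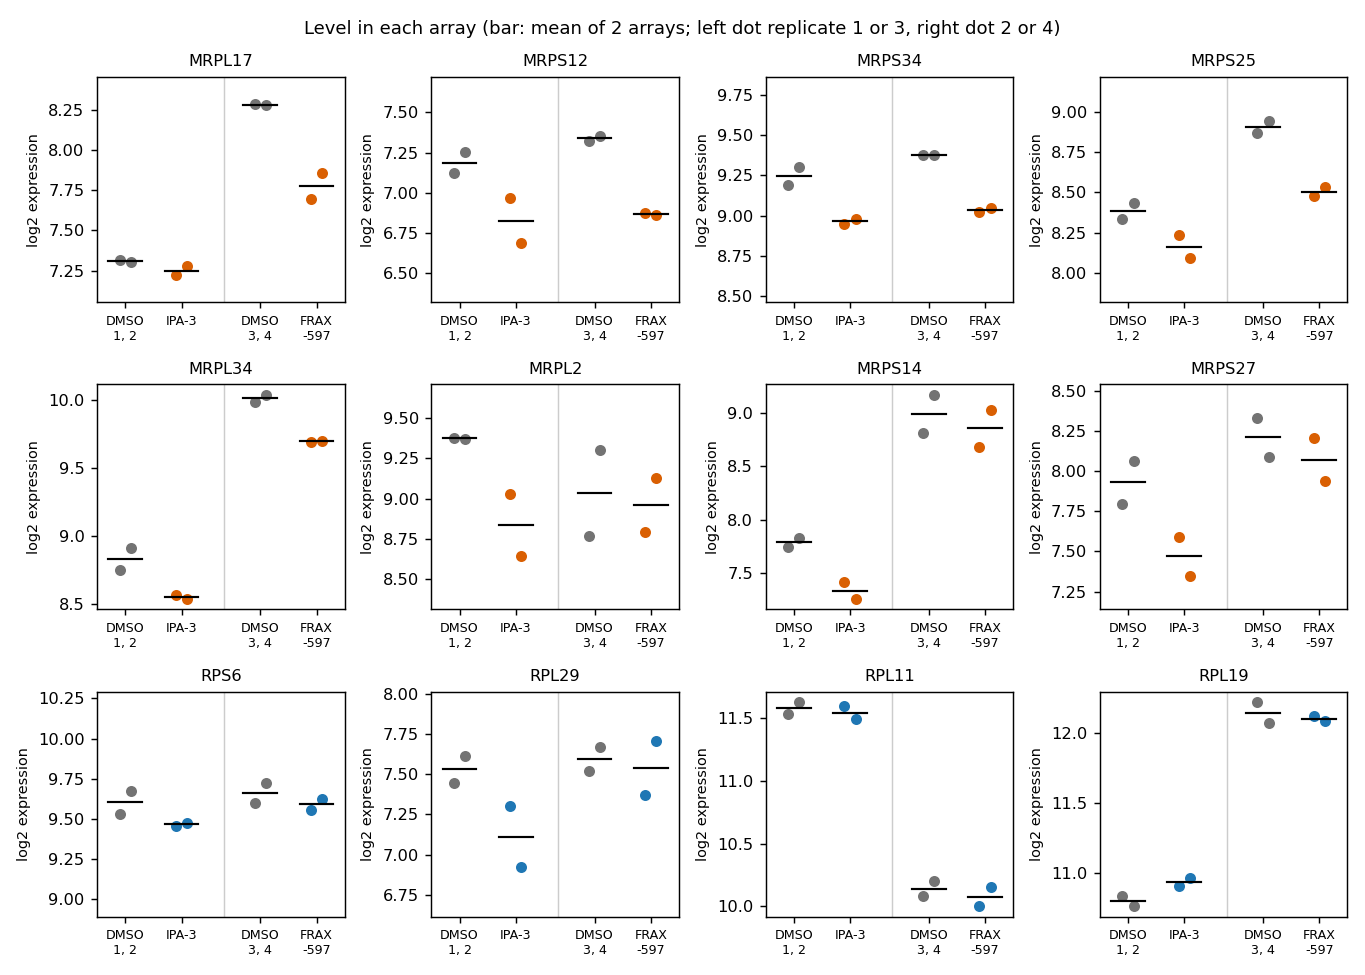
Log2 expression of 12 members in each array; dots are arrays, bars are means of 2 arrays, grey is DMSO, orange a compound on a mitochondrial gene and blue a compound on a cytosolic gene. The vertical line parts the 2 array sets; MRPL17 and MRPS34 lie lower in both FRAX-597 arrays than in DMSO 3 and 4, and RPL11 and RPL19 differ between the sets far more than within them.

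In the cytosolic class with IPA-3, RPL29, a surface protein of the large subunit, had the lowest change. Its level was 7.45 and 7.62 in DMSO and 7.30 and 6.92 with IPA-3, a log2 change of -0.42 (SE 0.17; limma unadjusted p = 0.0435, adjusted p = 0.68). The IPA-3 arrays did not overlap the controls but lay further apart from each other than the controls did. RPS15A had 8.12 and 8.35 in DMSO and 8.04 and 7.82 with IPA-3, a log2 change of -0.30 (SE 0.13). RPL32 and RPS28 each had a log2 change of -0.21. The members with both IPA-3 arrays above both controls were RPL19 (0.14), RPS18 (0.07) and RPL36 (0.06). RPS6, the substrate of S6 kinase downstream of mTOR, had 9.53 and 9.67 in DMSO and 9.46 and 9.47 with IPA-3, a log2 change of -0.14 (SE 0.11).

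Well-expressed genes in general lay lower with IPA-3, and the members were mostly well expressed. When all genes were split into 10 equal parts by their mean level, the median log2 change of all genes ran from 0.03 in the third part to -0.09 in the ninth, where 70.0% of all genes lay below 0. Measured against the genes of the same part, the median of the mitochondrial members was -0.06, with 57 of 72 lower, and that of the cytosolic members -0.03, with 27 of 49 lower. Against all genes the medians were -0.11 and -0.06. Without IPA-3 2 the medians against all genes were -0.08 for the mitochondrial members and -0.01 for the cytosolic ones. How far this trend with level accounts for the members' values was not tested beyond these medians.

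**Figure D3:**
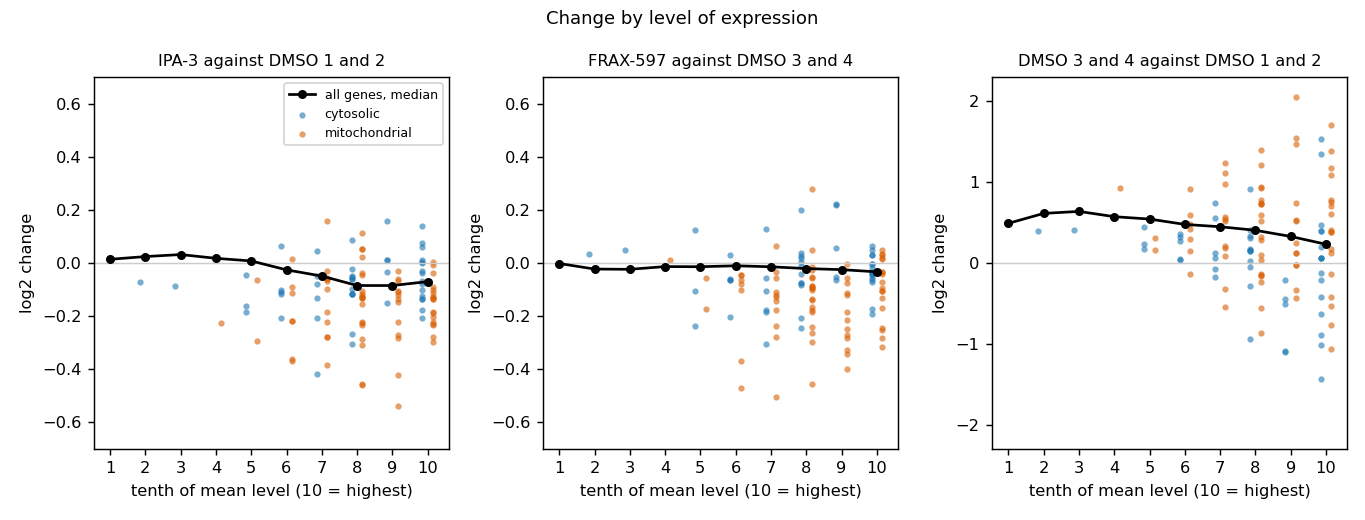
Log2 change against level of expression, in 10 equal parts by the mean over the 8 arrays; black points join the medians of all genes, blue points are cytosolic and orange points mitochondrial members. With IPA-3 the median of all genes falls below 0 from the sixth part upward, with FRAX-597 it stays near 0, and between the DMSO pairs it runs from 0.64 in the third part to 0.23 in the highest; the third panel has a wider axis.

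With FRAX-597 the mitochondrial members again lay lower and the cytosolic members near all genes, and 0 of 121 members passed the test. The median log2 change was -0.11 for the mitochondrial members, -0.04 for the cytosolic members and -0.02 for all genes. Below 0 lay 63 of 72 mitochondrial members, 32 of 49 cytosolic members and 8141 of 14884 genes. Both FRAX-597 arrays lay below both DMSO arrays in 21 mitochondrial and 6 cytosolic members, against 17.8% of all genes. They lay above them in 0 mitochondrial and 5 cytosolic members, against 13.0% of all genes. The limma fit called 0.155% of all genes (23 genes) for FRAX-597, 0.121% as higher and 0.0336% as lower. At an unadjusted p under 0.05, 9 mitochondrial members were lower and 0 cytosolic members were (3.61% of all genes), and 0 members were higher (4.04%). Against genes of the same level the mitochondrial median was -0.09, with 60 of 72 lower, and the cytosolic median -0.01.

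MRPL17, a large-subunit protein at the end of the exit tunnel, had the lowest change with FRAX-597. Its level was 8.28 in both DMSO 3 and DMSO 4 and 7.70 and 7.86 in the FRAX-597 arrays, 1.42-fold lower (log2 change -0.50, SE 0.11; limma unadjusted p = 0.0017, adjusted p = 0.218). The controls were almost equal and both treated arrays lay far below them. With IPA-3 the same gene had 7.32 and 7.30 in DMSO and 7.22 and 7.28 in the treated arrays, a log2 change of -0.06. MRPL32, whose maturation by a mitochondrial protease is needed for ribosome assembly, had 7.48 and 7.31 in DMSO and 7.08 and 6.98 with FRAX-597, a log2 change of -0.37 (SE 0.12). MRPL34 had 9.99 and 10.04 in DMSO and 9.69 and 9.70 with FRAX-597, a log2 change of -0.32 (SE 0.11). Its IPA-3 change was -0.28 (SE 0.11), and the groups did not overlap for either compound.

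In the small subunit MRPS12 had 7.33 and 7.35 in DMSO and 6.88 and 6.86 with FRAX-597, a log2 change of -0.47 (SE 0.13; limma adjusted p = 0.35). The arrays of each pair were almost equal. MRPS17 had 8.75 and 8.63 in DMSO and 8.31 and 8.16 with FRAX-597, a log2 change of -0.46 (SE 0.17). MRPS25 had 8.87 and 8.94 in DMSO and 8.48 and 8.53 with FRAX-597, a log2 change of -0.40 (SE 0.11; limma adjusted p = 0.36). MRPS34 had 9.38 in both DMSO arrays and 9.02 and 9.05 with FRAX-597, a log2 change of -0.34 (SE 0.10; limma adjusted p = 0.41). MRPS5 and MRPS2 each had a log2 change of -0.28. Thus 6 of the 9 mitochondrial members with an unadjusted p under 0.05 were among the 24 small-subunit members and 3 among the 48 large-subunit members, while the subunits' medians were -0.12 and -0.11. The highest change belonged to MRPL48, at 0.28 (SE 0.15), with 8.43 and 8.09 in DMSO and 8.67 and 8.41 with FRAX-597, so that its groups overlapped.

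The cytosolic members varied around 0 with FRAX-597. RPS14, whose gene is lost in the 5q deletion of myelodysplastic syndrome, had 8.33 and 8.15 in DMSO and 8.04 and 7.94 with FRAX-597, a log2 change of -0.25 (SE 0.13; limma adjusted p = 0.77). RPS7, which binds the p53 regulator MDM2, had 6.67 and 6.63 in DMSO and 6.31 and 6.51 with FRAX-597, a log2 change of -0.24 (SE 0.13). RPL9 and RPL6 had log2 changes of -0.21 and -0.19. On the other side RPL39, a small protein lining the exit tunnel, had 8.51 and 8.90 in DMSO and 8.90 and 8.96 with FRAX-597, a log2 change of 0.22 (SE 0.16). Its groups only just failed to overlap, and its second probe had a change of -0.16. RPS15A had 8.34 and 8.48 in DMSO and 8.63 and 8.60 with FRAX-597, a log2 change of 0.20 (SE 0.13), against -0.30 with IPA-3. RPL26 and RPS19 had changes of 0.06 and 0.05, also without overlap. The lowest cytosolic change, -0.31 (SE 0.24), was that of RPS26, mutated in Diamond-Blackfan anaemia, whose groups overlapped.

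The mitochondrial median with FRAX-597 depended on which of the 4 arrays were used. The median of the mitochondrial members relative to all genes was -0.21 without FRAX-597 1 and -0.03 without FRAX-597 2, and -0.06 without DMSO 3 and -0.16 without DMSO 4. Across the 72 mitochondrial members, DMSO 4 minus DMSO 3 and FRAX-597 2 minus FRAX-597 1 correlated with r = 0.79 (rho 0.75), across the 49 cytosolic members with r = 0.71 (rho 0.68) and across all genes with r = 0.65. These are correlations across genes, which share their arrays and are not independent. The monocytic marker LYZ followed the same split, with 10.79 and 9.71 in DMSO 3 and 4 and 10.69 and 9.80 in FRAX-597 1 and 2. CD14, CD68, CSF1R, MPO and MNDA were also higher in DMSO 3 and FRAX-597 1 than in DMSO 4 and FRAX-597 2. In the same order SPI1 differed little, with 9.33 and 9.29, then 9.22 and 9.08. CD86 reversed in the FRAX-597 arrays, with 6.04 and 5.87 in DMSO 3 and 4, then 6.60 and 6.88. The part of these markers in the values above was not tested. In the first set, the correlations of DMSO 2 minus DMSO 1 with IPA-3 2 minus IPA-3 1 were -0.29, -0.21 and -0.06. FRAX-597 1 minus DMSO 3 had a mitochondrial median of -0.11 with 53 of 72 below 0, and FRAX-597 2 minus DMSO 4 had -0.14 with 61 of 72. Crossed, FRAX-597 1 minus DMSO 4 had 36 of 72 below 0, while FRAX-597 2 minus DMSO 3 had a median of -0.28. Each of the 4 differences between an IPA-3 array and a DMSO array of its set had a mitochondrial median between -0.22 and -0.09, with 59 to 64 of 72 below 0.

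**Figure D4:**
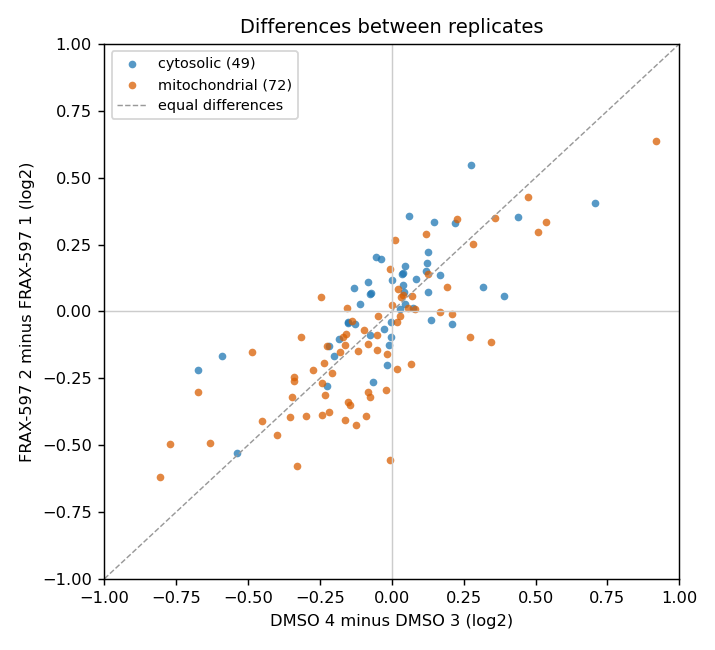
Difference between the 2 FRAX-597 arrays against the difference between DMSO 3 and DMSO 4 for each cytosolic (blue, r = 0.71) and mitochondrial (orange, r = 0.79) member; axes are log2 differences and the dashed line marks equal differences. Points follow the dashed line, so a gene that was lower in DMSO 4 than in DMSO 3 was mostly also lower in FRAX-597 2 than in FRAX-597 1.

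The labels do not pair the arrays. When DMSO 3 was blocked with FRAX-597 1 and DMSO 4 with FRAX-597 2, a pairing known from these values, 0 of 121 members were called for either compound, while the fit called 202 genes (1.36%) for FRAX-597 and 72 for IPA-3. MRPL17 then had the smallest limma adjusted p among members for FRAX-597, 0.0558, and MRPS14 for IPA-3, 0.135.

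The 2 compounds were given at different doses, so their values stand side by side. With both compounds 59 of 72 mitochondrial members lay below 0 (81.9%), as did 28 of 49 cytosolic members (57.1%) and 4779 of 14884 genes (32.1%). Both treated arrays lay below both controls with each compound in 15 mitochondrial members (20.8%), in 3 cytosolic members (6.12%) and in 889 of all genes (5.97%). Taken singly, 49 of 72 mitochondrial members lay so with IPA-3 and 21 of 72 with FRAX-597. Whether the shared count exceeds what these single counts alone would give was not tested. The 15 included MRPS12, MRPS34, MRPS25, MRPL34, MRPL17 and MRPL27, and the 3 cytosolic ones were RPL8, RPL9 and RPL38. The 2 comparisons share no array, though both used 1 estimate of spread per gene. Across members the changes with the 2 compounds were weakly related, with r = 0.21 over the 72 mitochondrial members, 0.16 over the 49 cytosolic members and 0.19 over all genes. In the fit, the FRAX-597 change minus the IPA-3 change was called for 0 of 121 members, against 0.0134% of all genes, and an unadjusted p under 0.05 was found for MRPL17 (-0.45, SE 0.15; limma adjusted p = 0.75) and RPS15A (0.50, SE 0.19; limma adjusted p = 0.77), against 2.67% of all genes below 0 and 3.43% above.

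**Figure D5:**
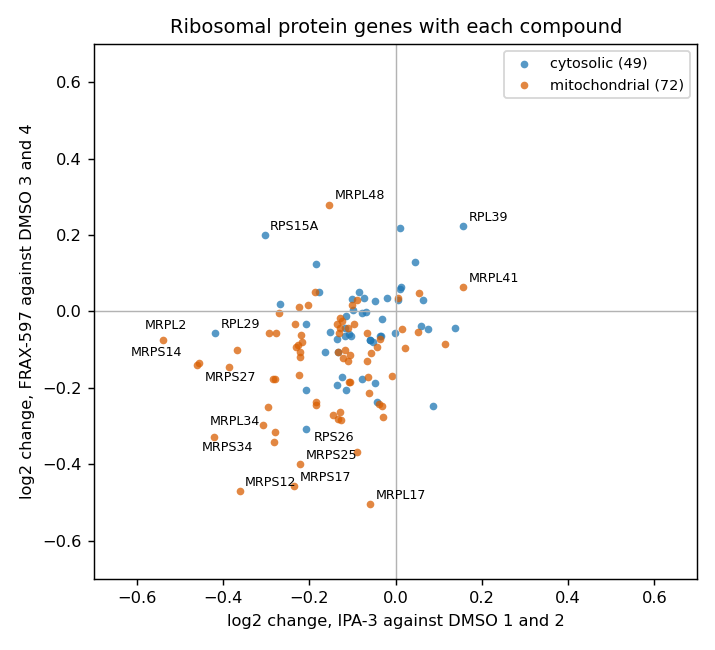
Log2 change with FRAX-597 against log2 change with IPA-3 for each cytosolic (blue) and mitochondrial (orange) ribosomal protein gene, each compound against the DMSO pair of its own array set. Of the mitochondrial members 59 of 72 lie below 0 on both axes, with MRPL17 at -0.50 for FRAX-597 and -0.06 for IPA-3, and MRPL2 at -0.08 and -0.54.

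The step between the classes in each array gives the same contrast without a change per gene. The mean of the cytosolic probes minus the mean of the mitochondrial probes was 0.51 in both DMSO 1 and DMSO 2 and 0.60 and 0.58 in the IPA-3 arrays. It was 0.10 and 0.18 in DMSO 3 and DMSO 4 and 0.16 and 0.32 in the FRAX-597 arrays. The IPA-3 arrays thus lay above both of their controls, whereas the FRAX-597 arrays overlapped theirs. The 2 DMSO pairs differed from each other by more than either compound differed from its controls. As differences of the class medians, cytosolic minus mitochondrial was 0.05 for IPA-3, 0.06 for FRAX-597 and -0.27 between the DMSO pairs.

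Between the DMSO pairs, which the labels give the same treatment, single ribosomal protein genes differed by up to 4.17-fold and in both directions. This comparison spans the 2 array sets, and what separates the sets cannot be told apart from any difference between the cells. The median of all genes was 0.48 higher in DMSO 3 and 4, that of the mitochondrial members 0.40 higher and that of the cytosolic members 0.13 higher. Relative to all genes the cytosolic median was therefore -0.35, with 44 of 49 members below the median of all genes, and the mitochondrial median -0.08, with 38 of 72 below. Against genes of the same level the medians were -0.26 and 0.04. The limma fit called 59.9% of all genes (54.9% higher, 4.98% lower). Of the cytosolic members 14 were called higher and 11 lower, and of the mitochondrial members 38 higher and 7 lower. At an unadjusted p under 0.05 the counts were 15 and 11 for the cytosolic members and 38 and 8 for the mitochondrial members, against 59.4% and 5.80% of all genes. Both arrays of DMSO 3 and 4 lay above both of DMSO 1 and 2 in 23 cytosolic and 49 mitochondrial members (73.8% of all genes) and below both in 14 and 15 (10.4%). With each array centred on its median, the counts became 3 higher and 21 lower for the cytosolic members and 16 higher and 19 lower for the mitochondrial members, against 13.7% higher and 16.6% lower over all genes in that fit. Without DMSO 1, 2, 3 or 4, the cytosolic members called higher numbered 4, 5, 7 and 9, and those called lower 8, 6, 8 and 8. Over all genes the same fits called 37.4%, 38.9%, 45.2% and 45.9% higher and 2.81%, 2.65%, 4.43% and 3.54% lower. The mitochondrial members called higher then numbered 26, 28, 29 and 36, and those called lower 4, 4, 7 and 3. Within the mitochondrial class the large subunit had a median of 0.53 (28 of 48 called higher, 4 lower) and the small subunit 0.18 (10 of 24 higher, 3 lower).

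The largest cytosolic differences were in RPL8, RPL19, RPL11 and RPS21. RPL8, at the peptidyl transferase centre, had 9.82 and 9.89 in DMSO 1 and 2 and 11.33 and 11.46 in DMSO 3 and 4, a log2 difference of 1.54 (SE 0.11; limma adjusted p = 3.4e-04). RPL19 had 10.83 and 10.76 against 12.22 and 12.07, a difference of 1.35 (SE 0.11), while its second probe had a difference of 0.24. RPL11, which binds MDM2 together with the 5S ribosomal RNA, had 11.53 and 11.63 against 10.08 and 10.20, a difference of -1.44 (SE 0.11; limma adjusted p = 3.6e-04). These pairs were each tight and far apart, and 0 of these 3 genes were called for a compound. RPS21, whose TOP tract is printed above, had 9.65 and 9.77 against 8.68 and 8.53, a difference of -1.11 (SE 0.11). RPS16, RPS15 and RPS27 were also lower in DMSO 3 and 4, with differences of -1.08, -1.02 and -0.89, and RPL27 with -0.64. RPS14 was higher, with 7.33 and 7.32 against 8.33 and 8.15, a difference of 0.91 (SE 0.13). RPL31 had 6.83 and 6.95 against 7.97 and 7.29, a difference of 0.74 (SE 0.21) that lost its call without DMSO 1 (0.68), DMSO 2 (0.80) or DMSO 3 (0.40), and with centred arrays (0.26).

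Among mitochondrial members, MRPL11, at the base of the ribosomal stalk, had 8.13 and 8.12 in DMSO 1 and 2 and 10.59 and 9.78 in DMSO 3 and 4. This was the largest difference of any member, 2.06 (SE 0.28; limma adjusted p = 0.0011), although DMSO 3 and 4 themselves lay apart. MRPS18A, whose transcript start is printed above, had 8.83 and 8.88 against 10.33 and 10.80, a difference of 1.70 (SE 0.19). MRPS11, MRPL4, MRPL19 and MRPL45, the last of which anchors the ribosome to the inner membrane, had differences of 1.54, 1.47, 1.40 and 1.38. MRPL34, MRPS2 and MRPL17 followed with 1.18, 1.11 and 0.97. In the other direction MRPL18 had 10.06 and 10.13 against 9.28 and 8.79, a difference of -1.06 (SE 0.17), and MRPS9, MRPS35 and MRPL42 had -0.87, -0.77 and -0.56. MRPL42 lost its call whichever DMSO array was left out, with differences from -0.58 to -0.53. Subunits of 1 ribosome thus lay on both sides of the array sets by more than the spread within each pair.

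Members with a close paralogue can share probe sequence and are uncertain for that reason. RPS27, a small-subunit protein, had 13.06 and 13.10 in DMSO 1 and 2 and 12.23 and 12.16 in DMSO 3 and 4. Its p53-inducible paralogue RPS27L had 5.35 and 5.48 against 5.83 and 5.82, a difference of 0.41 that became -0.07 with centred arrays and -0.13 with quantile normalization. RPL39 had a difference of -0.51 by the probe kept and 0.43 by its second probe, and lost its call without DMSO 1, DMSO 2 or DMSO 3 (-0.52 to -0.31). Its paralogue RPL39L had -0.94 and lost its call without DMSO 1, DMSO 2 or DMSO 4, being -0.67 without the last. RPS27L lost its call without DMSO 1 (0.34), and RPL10L without DMSO 1, DMSO 2 or DMSO 3 (0.36 to 0.41). RPL10 and RPL10L had 0.46 and 0.40, but -0.01 and -0.08 with centred arrays, and RPL10L, the testis-type copy, had levels of 4.07 to 4.62, so low that a signal above background is not established. RPL3L, the muscle-type copy, had 0.28 and was not called. With IPA-3 and FRAX-597 these 7 genes had log2 changes between -0.27 and 0.22, and 0 of them were called.

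Other proteins fixed for description moved little with the compounds. RPS19, the gene most often mutated in Diamond-Blackfan anaemia, had log2 changes of -0.18 with IPA-3 and 0.05 with FRAX-597, and 0.40 between the DMSO pairs, which became -0.08 with centred arrays and lost its call without any 1 of the 4 DMSO arrays (0.36 to 0.43). RPL22, lost in some leukaemias, had 6.20 and 6.39 in DMSO 1 and 2 and 6.11 in both IPA-3 arrays, a log2 change of -0.18 (SE 0.12), and its FRAX-597 change was 0.12 (SE 0.12). RPL11 had -0.04 with IPA-3 and -0.07 with FRAX-597. RPS7 had 0.45 between the DMSO pairs, which became -0.03 with centred arrays and -0.04 with quantile normalization and lost its call without any 1 of the DMSO arrays (0.38 to 0.52). RPL5, RPL23, RPL3, RPL13A, RPS4X and MRPL12 had no probe with that symbol alone and are not analysed here.

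For 7 members more than 1 probe carried the symbol, 17 probes in all, and the probe with the highest mean was kept. The probes of MRPS2 were alike with FRAX-597, at -0.28 and -0.22. Those of MRPL44 disagreed, at -0.27 for the probe kept and 0.31 for a second, dim one whose mean was 3.52. The 5 probes of RPL41 ran from -0.17 to -0.02 with FRAX-597 and from -0.17 to 0.14 with IPA-3.

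Genes that act around the ribosomes were taken from lists of known members. The cytosolic assembly factors, which process ribosomal RNA and build subunits in the nucleolus, were the 1 list with calls for a compound. Of 20 measured, all lay below 0 with FRAX-597, with a median log2 change of -0.41, 2 were called lower and 10 had an unadjusted p under 0.05, against 54.7% of all genes below 0 and 3.61% lower at that p. The list shares 2 genes, NOP16 and URB2, with those called lower in the whole fit, which numbered 5 (0.0336%). NOP16 fell from 8.64 and 8.56 to 7.56 and 7.67, by 0.98 on the log2 scale (SE 0.11; limma adjusted p = 0.029). URB2 fell from 8.77 and 8.89 to 7.60 and 7.92, by 1.07 on the log2 scale (SE 0.13; limma adjusted p = 0.038). With IPA-3 the same list had a median of -0.11, with 16 of 20 below 0 and 0 called. The assembly factors thus had a lower median than the cytosolic ribosomal proteins they handle, -0.41 against -0.04 with FRAX-597, a difference between lists that was not tested.

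The mitochondrial assembly list, with 16 genes measured, had medians of -0.09 with IPA-3 (11 below 0, 3 lower at an unadjusted p under 0.05) and -0.13 with FRAX-597 (14 below 0, 2 lower). Over all genes 55.6% lay below 0 with IPA-3 and 4.11% were lower at that p, and 54.7% and 3.61% with FRAX-597. ERAL1, which chaperones the small-subunit RNA, had log2 changes of -0.35 (SE 0.15) and -0.30 (SE 0.15), and 0 genes of the list were called. The 8 mitochondrial translation factors had medians of -0.09 and -0.09, with 6 below 0 for each compound. The 4 mitochondrial ribosomal proteins with other symbols had -0.16 and -0.19, with 3 below 0 for each. The 5 cytosolic ones had -0.03 and -0.15, with 3 below 0 with IPA-3 and all 5 with FRAX-597. The 10 elongation factors and other genes with TOP mRNAs had -0.05 and -0.04, close to the cytosolic members. Of 15 listed regulators of ribosomal protein expression 7 were measured. With IPA-3 all 7 lay below 0 (median -0.18), but only 4 lay below the median of genes of the same level. With FRAX-597, 6 lay below 0 (median -0.12) and 6 below the median of genes of the same level. There MYC had a log2 change of -0.87 (SE 0.15, limma adjusted p = 0.13). The 7 genes of the p53 pathway had medians of 0.00 and 0.23 and the 3 of RNA polymerase I -0.18 and -0.15. In these lists 0 genes were called for either compound, and 0 of 17 mitochondrial aminoacyl-tRNA synthetases were measured.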

How the data were processed

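The deposited values are log2 expression per probe of 8 arrays, made by the authors with Affymetrix Expression Console and Transcriptome Analysis Console, per the submitters' processing notes. Not given in the sources used here are the summarisation method, the normalization and the genome build of the annotation. There were 53617 probes, of which 16098 carried exactly 1 gene symbol and 37519 were unnamed here. Where several probes carried a symbol (779 genes), that of highest mean was used, which gave 14884 genes. All 121 member symbols were in the RefSeq table of GRCh38.p14, used for names and promoters.

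Groups came from the labels. The split of the DMSO arrays into DMSO 1 and 2 and DMSO 3 and 4 follows their values and is not labelled. One limma 3.58.1 fit (R 4.3.3, lmFit and eBayes) held 4 groups of 2 arrays, with 4 residual degrees of freedom before moderation, and adjusted p-values over all genes by Benjamini-Hochberg. The script was tested on simulated data. Replicate numbers of the compounds follow accession order. The number of arrays limits the precision.

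Named genes were, per comparison and class, up to 8 called members, the 4 largest rises and 4 largest falls among members whose groups did not overlap, 22 fixed names and up to 3 called genes of each of 10 gene lists; 6 marker lists were also read. MRPL27, MRPL32, MRPL34, MRPL44, MRPL48, MRPL51, MRPS2, MRPS5, MRPS7, RPL8, RPL38, RPL41, ERAL1, MYC and the markers were named for a compound outside this rule, after their values were seen. The members and lists were chosen with earlier results of these data known. Alternatives were quantile normalization, arrays centred on their median, pooled DMSO arrays, the mean over probes, dim genes left out, trended robust moderation, only the 4 arrays compared, a replicate block, and each array left out; comparison with genes of the same level was added after seeing the data.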

Additional observations from a re-analysis of the deposited data

Results flagged for a closer look

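Among the 4 DMSO arrays, with each level taken relative to the median of the named genes of its array, 2 members had 1 array far from the other 3. RPL31, a large-subunit protein, lay 1.03 above the median in DMSO 3 against 0.40 to 0.50 in the other 3 arrays. RPL36, also of the large subunit, lay 3.78 above it in DMSO 4 against 3.94 to 3.96. Among 4 arrays that are alike, chance sets apart about 1 in 20 such groups, and 55 were examined. The 4 DMSO arrays fell into 2 sets, so that rate need not hold for them.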

How the results depend on the processing

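For IPA-3 and for FRAX-597, 0 of 121 members were called under any of the 16 alternatives run. Medians below are relative to all genes. With the 4 DMSO arrays pooled, the cytosolic and mitochondrial medians were 0.11 and -0.15 for IPA-3, the cytosolic median was -0.25 for FRAX-597, and cytosolic minus mitochondrial was 0.27 and -0.10. Against genes of the same level, the mitochondrial median was -0.065 for IPA-3 and 0.040 between the DMSO pairs, where the cytosolic one was -0.26. Leaving out 1 array gave cytosolic and mitochondrial medians of -0.087 to -0.013 and -0.14 to -0.084 for IPA-3, -0.025 to 0.0070 and -0.21 to -0.026 for FRAX-597, and -0.39 to -0.33 and -0.11 to -0.033 between the DMSO pairs. Cytosolic minus mitochondrial then was 0.054 to 0.071, 0.019 to 0.21 and -0.34 to -0.23. Between the DMSO pairs, quantile normalization gave medians of -0.28 and 0.024, with 7 cytosolic and 20 mitochondrial members called higher and 14 mitochondrial members lower (all genes: 15.1% higher, 13.2% lower). Centred arrays gave 3 and 16 higher and 21 and 19 lower (13.7%, 16.6%), and without dim genes the cytosolic median was -0.38. Leaving out 1 array gave 4 to 14 and 26 to 38 higher and 6 to 11 and 3 to 8 lower (37.4% to 58.8%, 2.65% to 5.70%). Among named members called in either fit, centred arrays turned the sign for RPS7 (-0.027), RPS6 (-0.42), RPS19 (-0.081), RPS27L (-0.066), RPL10 (-0.012), RPL10L (-0.077) and MRPS34 (-0.35). With quantile normalization it turned for RPS7 (-0.037), RPS27L (-0.13) and RPL10L (-0.13). Between the DMSO pairs a further 10 values of named members without a call, RPL22 and RPL3L among them, changed sign under some alternative. For the compounds, 18 of 383 such values changed sign for FRAX-597 and 13 of 463 for IPA-3, all without a call. With the replicate block, a pairing not in the labels, 0 members were called for either compound, and 17 cytosolic and 41 mitochondrial members were higher and 11 and 9 lower between the DMSO pairs (63.8%, 6.90%). Averaging probes took RPL39 to -0.04. The causes of these shifts were not tested. Each group had 2 arrays, which limits the precision.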
